A study of Mus musculus with 2 samples.

Results

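Fgf10, Fgf7, Fgf1, Fgf2, Fgf8 and Fgf18 are genes for secreted or released fibroblast growth factors (FGFs) that act on neighbouring cells. These 6 genes of the 32285 features were chosen by symbol, and their unique molecular identifiers (UMIs, tags that count captured RNA molecules) were read in every cell class of the embryonic mouse pancreas. RNA of single cells was captured in 10x Genomics droplets from C57BL/6J mice at embryonic day 14.5, as 2 libraries. The Control library pooled 8 pancreata from 3 litters, of genotypes Fgf9 +/+ and +/-, so that some of its embryos carried 1 disrupted allele. The Null library pooled 3 pancreata from 3 litters that were Fgf9 -/-, in which a LacZ cassette interrupted both alleles in every cell of the embryo. With 1 pooled library per group there was no replicate and no test, and every interval given is a 95% interval for counting error only. Differences between embryos and between library preparations are not in these intervals.

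FGFs bind receptor tyrosine kinases, encoded by Fgfr1 to Fgfr4, together with heparan sulphate chains on the cell surface. Alternative splicing of Fgfr1, Fgfr2 and Fgfr3 gives epithelial (b) and mesenchymal (c) receptor forms, which bind different ligands, so that many FGFs signal from one tissue layer to the other. In the pancreas, Fgf10 from the mesenchyme around the buds is known to keep epithelial progenitors dividing through the b form of Fgfr2, and Fgf7 binds the same receptor form. Fgf1 and Fgf2 lack a classical signal peptide and are released by other routes. Fgf8 and Fgf18 belong to 1 subfamily that mainly binds c forms, and Fgf9, the gene disrupted here, also signals mainly to c forms.

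After filtering, 26959 Control cells with a median of 5728 UMIs and 8884 Null cells with a median of 24259 UMIs were kept. Cells were placed in classes by clustering without any FGF ligand among the genes used, and a class is named from its markers. Mesenchymal-like cells numbered 2403 Control and 756 Null, and mesothelial-like cells, from the sheet that covers the organ, numbered 1340 Control and 553 Null. Of 11 mesenchymal markers, 9 in Control and 8 in Null were highest in their own class, and of 11 mesothelial markers, 10 were highest in theirs in each library. Fgf9 UMIs were lower in the Null library but not absent, at 121 CPM (UMIs in every 1000000 UMIs of the class) in Control and 36.2 CPM in Null mesothelial cells. A 3' tag outside the disrupted part of that gene would not check the genotype. The libraries also differed in Xist, the RNA of the inactive X chromosome, at 341 CPM in Control and 0.103 CPM in Null mesothelial cells, so genotype and sex composition cannot be told apart. Of the kept barcodes, 73 occurred in both libraries, and these held 14 UMIs of the 6 ligands.

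The stromal cells of the libraries filled different clusters. Among mesenchymal cells, cluster 1, led by Lpar1, Col8a1 and Pdgfrb, held 1470 Control and 20 Null cells, while cluster 3, led by Acta2, Plac8 and Lum, held 163 Control and 460 Null cells. Among mesothelial cells, cluster 2 (Ptgds, Tm4sf5, Upk3b) held 696 Control and 149 Null cells and cluster 5, which also carried dividing-cell genes such as Cenpf, held 342 and 87. Cluster 11 (Oprk1, Upk3b, Prph) held 4 Control and 188 Null cells, and cluster 14 (Angptl7, Arhgap22, Adamts19) held 1 and 92. Cluster 7 (Hbb-bs, Ptgds, Aldh1a2) held the other 297 Control and 37 Null mesothelial cells, which were shallow, with medians of 2592 and 1591 UMIs. Markers summed over the 11 mesenchymal genes stood at 3048 CPM in Control and 9002 CPM in Null mesothelial cells, with no marker at 0, beside 6592 and 10447 CPM in mesenchymal cells. The 11 mesothelial markers stood at 1503 and 1518 CPM in mesothelial cells. Erythroid markers stood at 312 and 1056 CPM there and endothelial markers at 63.0 and 134 CPM. These differences run beside every mesothelial value below, and their part in those values was not tested.

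The ligands differed in the classes that held most of their UMIs in the Control library. Fgf2 was read mainly in the mesenchyme, with 71.8% of its UMIs in named cells (66.3% to 76.8%). Fgf8 and Fgf18 were read mainly in the mesothelium, with 87.2% (80.8% to 92.1%) and 55.5% (52.1% to 58.8%) of their UMIs. Fgf10 was split between mesenchyme at 52.3% (46.9% to 57.7%) and mesothelium at 36.5% (31.4% to 41.8%). Fgf1 was read largely in the epithelium, with 43.0% of its UMIs in ductal or bipotent progenitor-like cells and 22.1% in acinar-like cells. Fgf7 had too few UMIs to place, 52 over all kept Control cells and 57 over all kept Null cells. These shares depend on how many cells of each class were sorted, whereas CPM does not count cells.

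**Figure D1:**
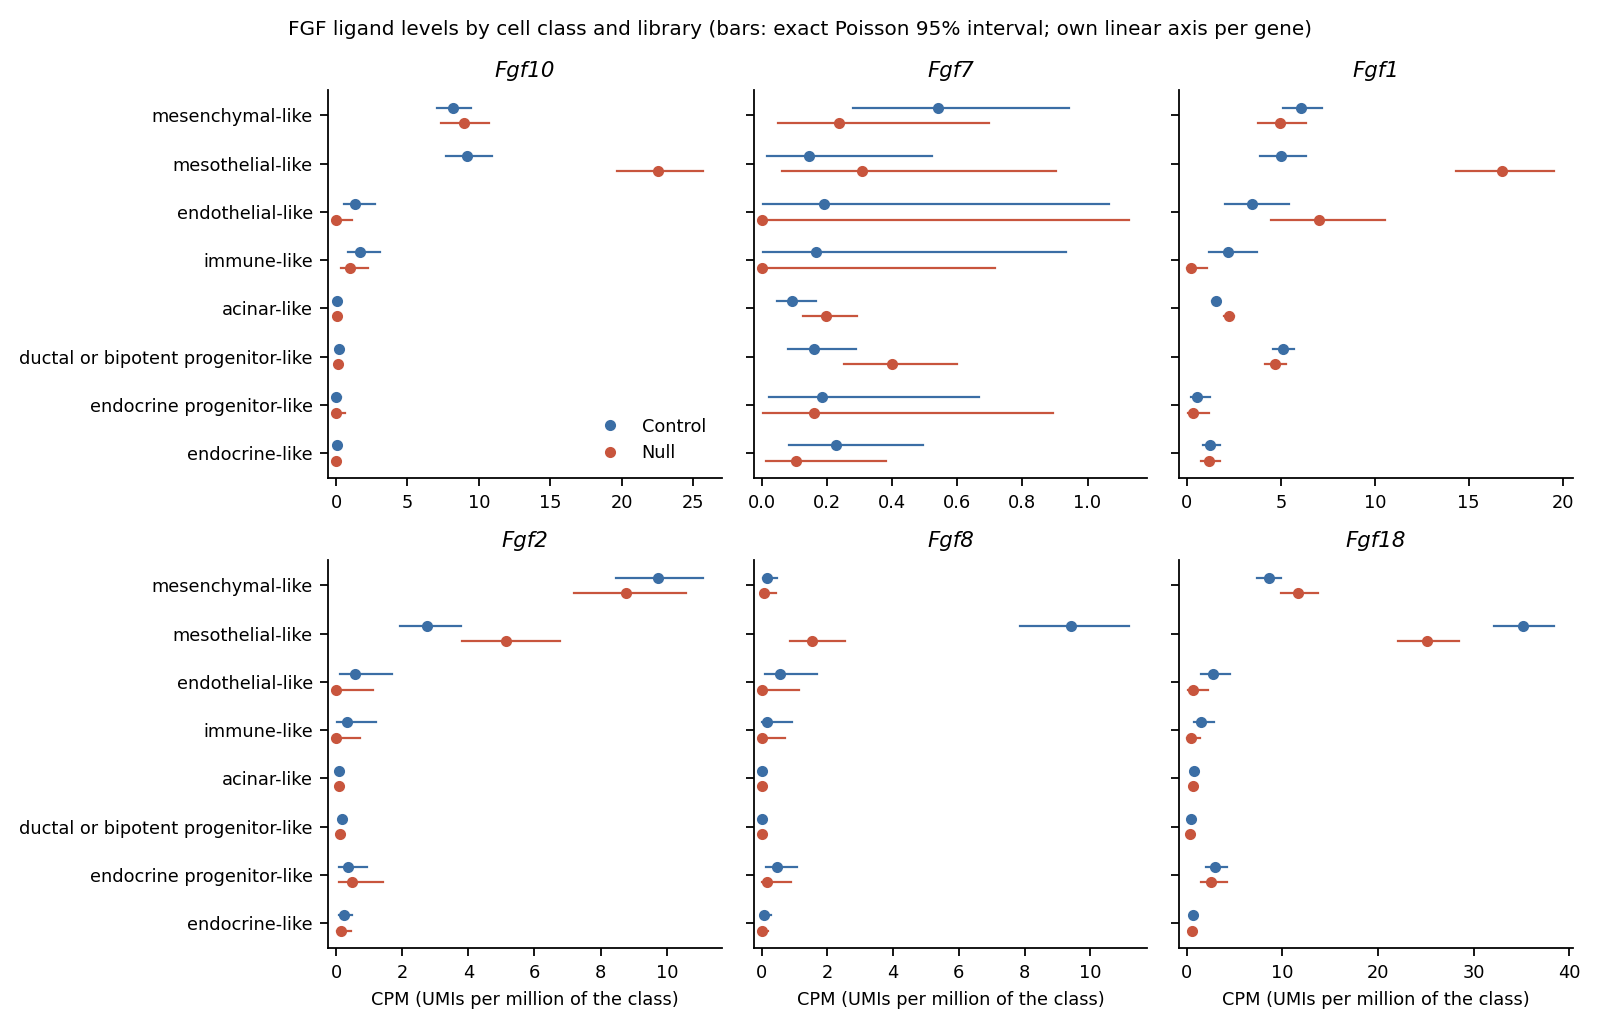
Level of each ligand (horizontal axis, CPM, a separate linear axis for each gene) in 8 cell classes (vertical axis), with the Control library in blue, the Null library in red and exact Poisson 95% intervals as bars. Fgf10 and Fgf1 in mesothelial-like cells stand to the right in the Null library (22.5 and 16.8 CPM against 9.19 and 4.99), and Fgf8 stands to the left (1.54 against 9.41).

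Orders of levels below cover classes of at least 200 cells in the library. Fgf10 was a stromal transcript in both libraries. In Control cells it stood at 9.19 CPM in the mesothelium (127 UMIs) and 8.19 CPM in the mesenchyme (182 UMIs), and these neighbours in the order did not differ beyond their counting intervals. The next classes were immune-like cells at 1.67 CPM and endothelial-like cells at 1.34 CPM, from 10 and 7 UMIs, whose intervals overlapped each other. Epithelial classes were near 0, with 0.0599 CPM in acinar cells, 0.177 CPM in ductal cells and no UMI in 880 endocrine progenitor-like cells, where the limit of 3 counts that a count of 0 allows is a share of 0.341% of cells with a UMI. The annotated gene lies on the plus strand at chr13:118669791-118792115 (GRCm38, GENCODE vM21) and overlaps the antisense gene Gm16263. No source used here says if the counting was strand-aware, so reads of antisense partners cannot be told apart from those of the ligand.

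In mesothelial cells Fgf10 was higher in the Null library. It stood at 9.19 CPM (7.66 to 10.9) in Control and at 22.5 CPM (19.7 to 25.7, 219 UMIs) in Null, a 2.45-fold difference with a log2 ratio of 1.29 (0.97 to 1.62). The intervals of the 2 libraries did not overlap. In mesenchymal cells it stood at 8.19 CPM (7.05 to 9.47) in Control and 8.93 CPM (7.35 to 10.7, 112 UMIs) in Null, and the log2 ratio of 0.12 had an interval of -0.23 to 0.47. The mesothelium held 62.2% of the Fgf10 UMIs of named Null cells (56.9% to 67.3%), against 36.5% in Control. Its level in Null mesothelium was above that in Null mesenchyme, and the intervals of those classes did not overlap.

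Part of the Null mesothelial Fgf10 came from cells with many UMIs. In Control, 95 cells had 1 Fgf10 UMI and 16 had 2, and none of 1340 had more. In Null, 89 cells had 1, 32 had 2 and 14 of 553 had 3 or more, up to 13 in a single cell, and those 14 cells held 30.1% of the UMIs. Without cells of 3 or more UMIs the log2 ratio was 0.83 (0.48 to 1.18), below the threshold of 1 used for calls. Since no Control cell was left out, this setting could only lower the ratio. The deeper Null cells had more chances to reach 3 UMIs, with medians of 18051 UMIs per mesothelial cell in Null and 10811.5 in Control.

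Profiles were compared for Fgf10, Fgf1, Fgf2 and Fgf18, which had at least 200 UMIs in named cells. Of these, Fgf10 and Fgf18 were the pair whose levels ran most alike over 19 class-by-library profiles (Pearson's r of 0.87 on log2(CPM + 1), which share library and depth). Their 250 bases upstream of the RefSeq start (GRCm38.p6) are shown so that the starts of this pair can be compared, with matches to the searched motifs in capitals. They are chr13:118714449-118714698 on the plus strand for Fgf10, within the GENCODE gene and 44908 bases from its outer end, and chr11:33147401-33147650 on the minus strand for Fgf18.
Fgf10: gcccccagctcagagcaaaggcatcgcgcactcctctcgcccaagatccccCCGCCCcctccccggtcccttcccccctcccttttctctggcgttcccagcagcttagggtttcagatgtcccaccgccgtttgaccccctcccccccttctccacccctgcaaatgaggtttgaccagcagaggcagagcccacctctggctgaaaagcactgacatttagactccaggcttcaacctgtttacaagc
Fgf18: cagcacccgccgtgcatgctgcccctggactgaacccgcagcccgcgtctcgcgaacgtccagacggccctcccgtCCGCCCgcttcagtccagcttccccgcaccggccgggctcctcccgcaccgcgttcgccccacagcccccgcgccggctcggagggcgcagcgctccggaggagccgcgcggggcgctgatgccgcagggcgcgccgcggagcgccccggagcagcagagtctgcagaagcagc
Searched on both strands were the GC box GGGCGG, the ETS core CCGGAA and the TATA box TATAAA, whose matches did not overlap here. Each window held 1 GC box, read as CCGCCC on the strand shown, and neither held the other motifs. Of 32851 promoter windows of that length, 32.7% held a GC box, 12.0% the ETS core and 12.4% the TATA box. The Fgf18 window had 37 CG dinucleotides, more than 97.8% of all windows, and the Fgf10 window had 8, against a median of 6. Of the 6 ligands, 4 had an entry in the promoter table.

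Fgf7, which binds the same receptor form as Fgf10, had few UMIs in these cells. In mesenchymal cells it had 12 UMIs in Control (0.540 CPM) and 3 in Null (0.239 CPM), and in mesothelial cells 2 and 3, under the 20 UMIs needed to be measured. In ductal cells it had 11 UMIs in Control (0.162 CPM, 0.0811 to 0.291) and 23 in Null (0.400 CPM, 0.253 to 0.600). The log2 ratio there was 1.299 (0.20 to 2.48), the only ligand of 4 measured in ductal cells that was past 1 either way, where 2.38% of 16316 features were past 1 and 1.75% past -1 with an interval excluding 0. Acinar cells had 11 and 24 UMIs, with an interval of the log2 ratio from -0.02 to 2.24, and none of 4 ligands measured in acinar cells was called by the same rule, against 1.45% of 16656 features higher and 3.31% lower in Null. After each ductal cell was thinned to 5000 UMIs, 3 Control and 3 Null cells had an Fgf7 UMI. The libraries filled the ductal clusters unevenly. Epithelial cluster 0 held 1143 Control and 330 Null cells, epithelial cluster 2 held 612 and 794, and epithelial cluster 21 held 0 and 57. The part of this in the ductal values, here and below, was not tested. Fgf7 lies at chr2:126034658-126091185 on the plus strand, inside Fam227b on the minus strand.

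Fgf1 differed from Fgf10 in having an epithelial source. In Control it stood at 6.08 CPM in mesenchymal, 5.11 CPM in ductal and 4.99 CPM in mesothelial cells, neighbours whose intervals overlapped, and at 1.52 CPM in acinar cells. In ductal cells the level was 5.11 CPM in Control (346 UMIs) and 4.68 CPM in Null (269 UMIs), with a log2 ratio of -0.13 (-0.36 to 0.11). In acinar cells, where 178 and 274 UMIs were read, it was higher in Null at 2.24 CPM, with a log2 ratio of 0.56 (0.28 to 0.84). Endothelial cells had 18 Control and 23 Null UMIs, 3.44 and 7.03 CPM, and 1 Null cell held 8 of the 23. Fgf1 lies on the minus strand of chromosome 18, inside Arhgap26 on the plus strand. It also overlaps the non-coding RNA gene AC110730.1 on the plus strand. By gene identifier, AC110730.1 was among the counted features and Arhgap26 was not.

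In mesothelial cells Fgf1 was higher in the Null library by the widest ratio among the ligands that were higher there in the main setting. With classes set per cell from markers the log2 ratio of Fgf10 was wider, at 1.69 against 1.46 for Fgf1. The same held over clusters 2 and 5, at 1.70 against 1.32. It stood at 4.99 CPM (3.89 to 6.32, 69 UMIs) in Control and 16.8 CPM (14.3 to 19.6, 163 UMIs) in Null, a 3.36-fold difference and a log2 ratio of 1.75 (1.33 to 2.18). This moved the mesothelium from the third place of its class order in Control to the first in Null, with no overlap with the next class. In mesenchymal cells it stood at 6.08 CPM (135 UMIs) and 4.94 CPM (62 UMIs), with a log2 ratio of -0.30 (-0.76 to 0.15). Without cells of 3 or more Fgf1 UMIs, of which there were 5 Control and 17 Null, the mesothelial log2 ratio was 1.54 (1.03 to 2.06).

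Fgf2 had the largest mesenchymal share of the set, and its interval there held 0. It stood at 9.72 CPM (8.47 to 11.1, 216 UMIs) in Control and 8.77 CPM (7.21 to 10.6, 110 UMIs) in Null mesenchymal cells, with a log2 ratio of -0.15 (-0.49 to 0.19). In mesothelial cells it stood at 2.75 CPM (38 UMIs) and 5.15 CPM (50 UMIs), with a log2 ratio of 0.90 (0.27 to 1.55). That ratio was under 1 here and ran from 0.80 to 1.32 over 10 alternative settings, past 1 in 4 of them. In both libraries the mesenchymal level was above the mesothelial one without overlap of the intervals. Fgf2 lies at chr3:37348346-37410108 on the plus strand and overlaps Nudt6 and Fgf2os on the opposite strand. It also overlaps Gm43439 on the same strand, which by gene identifier was not among the counted features. Nudt6 itself was read with 84 Control and 33 Null UMIs in mesenchymal cells, and it was highest in acinar cells, at 8.47 CPM in Control, where Fgf2 stood at 0.103 CPM.

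Fgf8 was a mesothelial transcript that was lower in the Null library. In mesothelial cells it stood at 9.41 CPM (7.86 to 11.2, 130 UMIs) in Control and 1.54 CPM (0.864 to 2.55, 15 UMIs) in Null, a 6.097-fold difference and a log2 ratio of -2.61 (-3.49 to -1.83). The intervals did not overlap. Elsewhere it was close to 0, with 4 UMIs in 2403 Control and 1 UMI in 756 Null mesenchymal cells. Over all kept cells it had 176 Control and 20 Null UMIs. Of the Control mesothelial cells 109 had an Fgf8 UMI, and 2 of those had 3 or more. The gene lies at chr19:45736798-45742915 on the minus strand, and no other annotated gene overlapped it.

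Among classes of at least 200 cells, Fgf18 was highest in the mesothelium, followed by the mesenchyme and then endocrine progenitors, in both libraries. In Control the interval of endocrine progenitors overlapped that of endothelial cells at 2.68 CPM. The smaller class of mural or smooth muscle-like cells stood at 6.78 CPM in Control and 19.6 CPM (11.6 to 31.0) in Null. In mesothelial cells it stood at 35.2 CPM (32.1 to 38.5, 486 UMIs) in Control and 25.1 CPM (22.1 to 28.5, 244 UMIs) in Null, with a log2 ratio of -0.49 (-0.71 to -0.26). In mesenchymal cells the order was the opposite, 8.55 CPM (7.38 to 9.86, 190 UMIs) in Control and 11.6 CPM (9.83 to 13.7, 146 UMIs) in Null, with a log2 ratio of 0.44 (0.12 to 0.76). Neither ratio reached 1, and without cells of 3 or more Fgf18 UMIs the mesenchymal one was 0.21 (-0.14 to 0.55). Endocrine progenitors stood at 2.96 CPM in Control and 2.56 CPM in Null, from 32 and 16 UMIs, and ductal cells at 0.414 and 0.365 CPM. Fgf18 lies at chr11:33117430-33147400 on the minus strand, and no other annotated gene overlapped it.

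**Figure D2:**
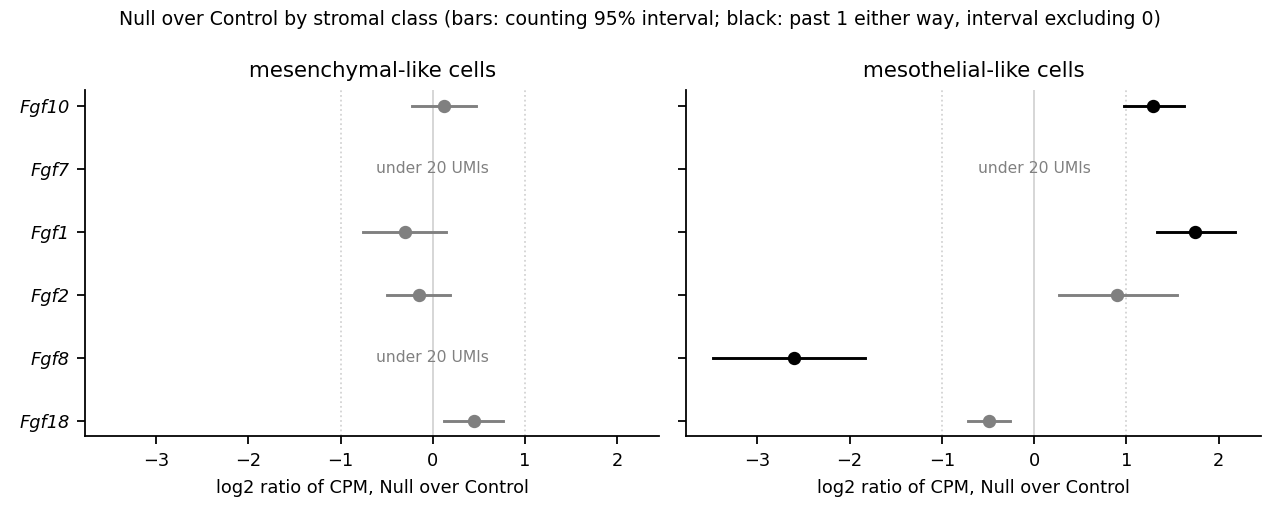
Log2 ratio of CPM, Null over Control (horizontal axis), of each ligand (vertical axis) in mesenchymal-like and mesothelial-like cells, with counting 95% intervals as bars; black points are past 1 either way with an interval excluding 0, and dotted lines mark 1 and -1. Fgf7 in both classes and Fgf8 in mesenchymal cells had under 20 UMIs and have no point. In mesenchymal cells none of the 4 measured ligands is past 1 either way, and in mesothelial cells Fgf10 (1.29) and Fgf1 (1.75) are past 1 and Fgf8 (-2.61) is past -1.

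A feature was called where its log2 ratio reached 1 either way and its interval excluded 0, among features with at least 20 UMIs in the class. In mesothelial cells 5 of the 6 ligands were measured, of which 2 were called higher and 1 lower in Null, with a median log2 ratio of 0.90. Among all 14023 features measured there, 5.86% were called higher and 4.91% lower, with a median of -0.01. In mesenchymal cells 4 ligands were measured and none was called in either direction, against 4.17% called higher and 5.66% lower of 14565 features. The median of those 4 was -0.01, and the median of all features was 0.00112.

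The mesothelial differences of Fgf10, Fgf1 and Fgf8 were also read within clusters 2 and 5, the deeper clusters that both libraries filled. In cluster 2 Fgf10 stood at 11.03 CPM in Control (84 UMIs) and 41.0 CPM in Null (96 UMIs), and in cluster 5 at 7.30 and 20.03 CPM. Fgf1 stood at 3.81 and 9.82 CPM in cluster 2 and at 6.93 and 15.8 CPM in cluster 5. Fgf8 stood at 9.98 and 2.13 CPM in cluster 2 and at 9.18 and 2.79 CPM in cluster 5. Fgf18 differed less, with 38.7 and 37.1 CPM in cluster 2 and 33.0 and 26.5 CPM in cluster 5, where both intervals of the log2 ratio held 0. Over clusters 2 and 5 together the log2 ratio was 1.70 for Fgf10, 1.32 for Fgf1, -1.98 for Fgf8 and -0.18 for Fgf18. The mesenchymal markers differed within these clusters too, at 3233 and 7892 CPM in cluster 2 and 3043 and 7938 CPM in cluster 5. The shallow cluster 7 held 4 Control UMIs and 2 Null UMIs of Fgf10, 3 and 0 of Fgf1, 5 and 0 of Fgf8, and 14 and 1 of Fgf18.

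**Figure D3:**
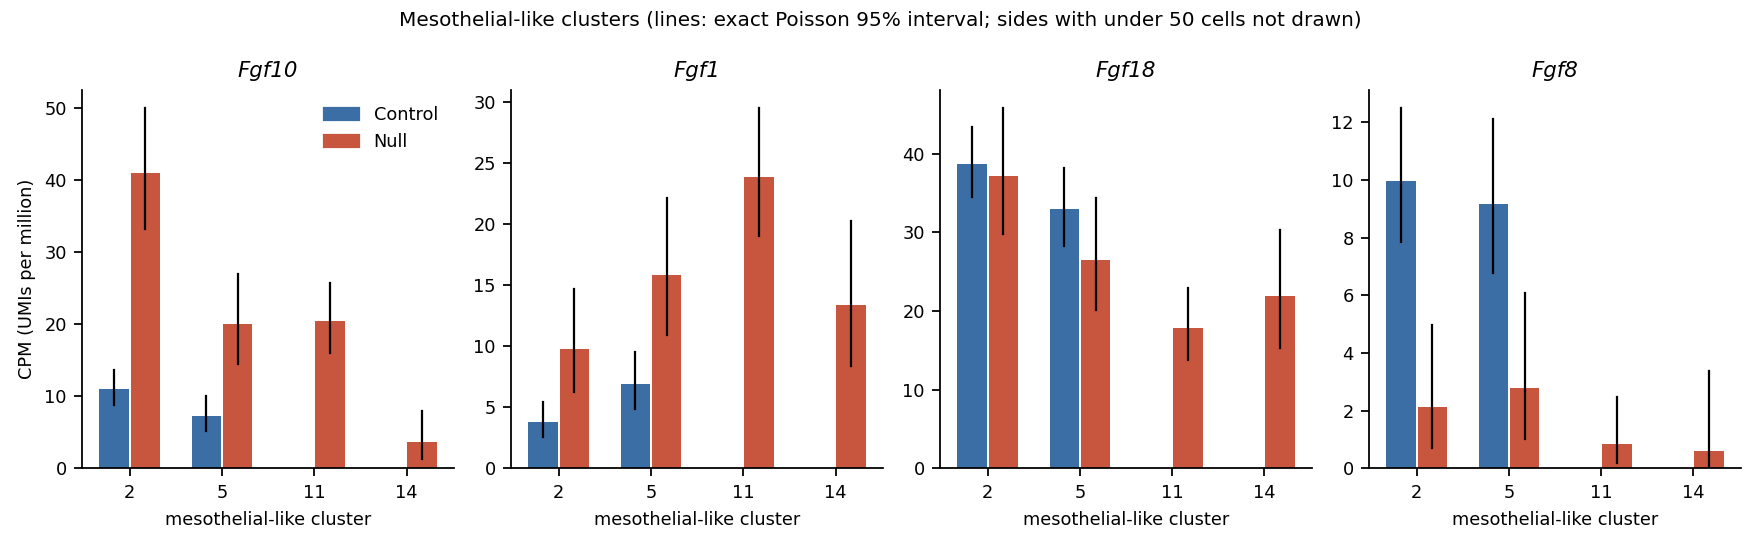
Level (vertical axis, CPM, starting at 0) of Fgf10, Fgf1, Fgf18 and Fgf8 in the mesothelial-like clusters 2, 5, 11 and 14 (horizontal axis), Control in blue and Null in red, with exact Poisson 95% intervals as lines; clusters 11 and 14 had under 50 Control cells, which are not drawn, and the shallow cluster 7 is left out. Fgf10 is highest in Null cluster 2 at 41.0 CPM and Fgf1 in Null cluster 11 at 23.9 CPM, and Fgf8 is lower in Null in clusters 2 and 5.

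The clusters held mostly by Null cells differed among themselves. Cluster 11 had 20.4 CPM of Fgf10 and 23.9 CPM of Fgf1, whereas cluster 14 had 3.65 CPM of Fgf10 from 6 UMIs and 13.4 CPM of Fgf1. Fgf18 stood at 17.9 CPM in cluster 11 and 21.9 CPM in cluster 14, and Fgf8 at 0.852 and 0.609 CPM from 3 UMIs and 1 UMI. The mesenchymal marker sum was 12926 CPM in cluster 11 and 3833 CPM in cluster 14. The mesothelial marker sum was 1544 CPM in cluster 11 and 758 CPM in cluster 14, beside 1820 and 1745 CPM in Null cells of clusters 2 and 5. A cluster that comes almost wholly from 1 library may be that library and not a cell type.

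Mesothelial cells were also divided by Barx1, which encodes a homeobox factor of stomach and spleen mesenchyme and stood at 488 CPM in Control and 86.8 CPM in Null mesothelium. In cells with a Barx1 UMI, 1111 Control and 177 Null, Fgf10 stood at 9.57 and 28.0 CPM, Fgf1 at 5.10 and 12.2 CPM, and Fgf8 at 9.81 and 2.43 CPM. In cells without one, 229 Control and 376 Null, Fgf10 stood at 3.48 and 19.8 CPM and Fgf1 at 3.48 and 19.1 CPM, where each Control value rests on 3 UMIs. Fgf8 had 3 Control and 7 Null UMIs in those cells, with a log2 ratio of -1.68 (-3.81 to 0.91). Control cells without a Barx1 UMI were shallow, with a median of 2720 UMIs against 17714 in Null, so this split follows depth as well as Barx1, which itself differed between the libraries. The interval of Fgf18 held 0 in both groups of cells, with a log2 ratio of -0.17 (-0.49 to 0.14) in cells with a Barx1 UMI and 0.21 (-0.54 to 1.06) in cells without.

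Mesenchymal cells were divided by regional genes. Cells with a UMI of Tlx1 or Nkx2-5, factors of the spleen primordium, numbered 546 in Control and 15 in Null, and the Control cells had 8.36 CPM of Fgf10 and 9.21 CPM of Fgf2. Neither library had an Fgf8 UMI there, and Fgf18 had 47 UMIs in Control and 0 in the 15 Null cells. Cells with Barx1 and neither of these numbered 826 and 118, with Fgf10 at 9.14 and 6.44 CPM and Fgf18 at 11.8 and 10.1 CPM. Cells with none of these genes but a UMI of Mgp, a matrix protein gene, numbered 68 and 317. They had Fgf10 at 11.2 and 10.8 CPM and Fgf18 at 11.2 CPM (7 UMIs) in Control and 14.9 CPM (81 UMIs) in Null. In cells with none of these genes and no UMI of Mgp, Fgf10 stood at 6.85 and 7.80 CPM, and Fgf18 at 5.43 CPM in Control and 9.18 CPM in Null. For Fgf10, Fgf1 and Fgf2 the interval of the log2 ratio held 0 in each of the groups of mesenchymal cells. For Fgf18 it excluded 0 in the last group, at 0.76 (0.10 to 1.42).

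Cluster by cluster, the Control mesenchyme had its highest Fgf2 and Fgf18 in cluster 3. There Fgf2 stood at 18.7 CPM in Control (30 UMIs) and 11.4 CPM in Null (83 UMIs), and Fgf18 at 22.4 CPM (36 UMIs) and 13.96 CPM (102 UMIs). Both were lower in Null within that cluster, with log2 ratios of -0.72 (-1.34 to -0.06) and -0.68 (-1.25 to -0.09). In cluster 1, which was nearly all Control, Fgf2 stood at 10.5 CPM and Fgf18 at 8.79 CPM. Over clusters 6, 8 and 9, whose leading genes include histone or cell cycle genes, Fgf18 stood at 5.42 CPM in Control and 8.41 CPM in Null, with a log2 ratio of 0.63 (-0.02 to 1.29). In cluster 8 Fgf10 stood at 5.25 CPM in Control (11 UMIs) and 15.4 CPM in Null (14 UMIs), with a log2 ratio of 1.55 (0.30 to 2.83). The Fgf10 ratio was 0.34 (-0.60 to 1.29) in cluster 6 and -0.78 (-3.33 to 1.27) in cluster 9. Over clusters 6, 8 and 9 together it was 0.53 (-0.15 to 1.21). The direction of Fgf18 over all mesenchymal cells was not that of cluster 3.

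Shares of cells with at least 1 UMI follow depth, so they were also taken after each cell was thinned to a fixed number of UMIs. Without thinning, 8.28% of Control and 24.4% of Null mesothelial cells had an Fgf10 UMI, and 3.58% and 16.998% had an Fgf1 UMI. Acinar cells, at median depths of 31288 and 47133 UMIs, had an Fgf10 UMI in 0.189% and 0.155% of cells. Thinned to 5000 UMIs, with 345 Control and 69 Null mesothelial cells left out as shallower, the shares were 4.32% (3.14% to 5.78%) and 9.92% (7.40% to 12.9%) for Fgf10. For Fgf1 they were 1.61% (0.922% to 2.60%) and 8.68% (6.33% to 11.5%), and for Fgf8 4.12% (2.97% to 5.55%) and 1.03% (0.336% to 2.39%). For Fgf18 the unthinned shares of 25.6% and 29.8% turned to 15.0% and 9.09% after thinning to 5000 UMIs, the order that CPM gives. Thinned to 2000 UMIs, the mesothelial Fgf10 shares were 2.09% (1.38% to 3.03%) and 3.84% (2.36% to 5.87%), with intervals that overlapped. At that setting Fgf1 stood at 0.621% and 3.84% and Fgf18 at 5.59% and 4.61%. The mesenchymal shares of Fgf10, Fgf1, Fgf2 and Fgf18, all higher in Null before thinning, had overlapping intervals after it. For Fgf1 the intervals overlapped before thinning too.

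**Figure D4:**
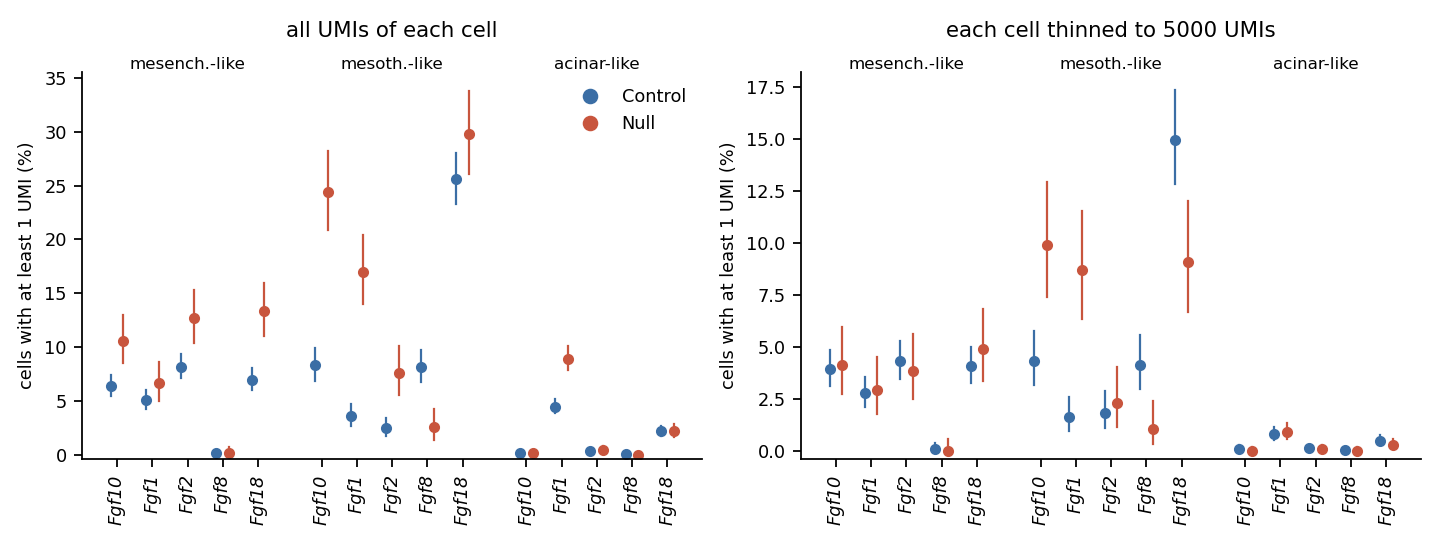
Share of cells with at least 1 UMI (vertical axis, percent) of 5 ligands in mesenchymal-like, mesothelial-like and acinar-like cells, Control in blue and Null in red, with exact Clopper-Pearson 95% intervals; the left panel uses all UMIs and the right panel each cell thinned to 5000 UMIs. After thinning to 5000 UMIs, the mesothelial shares of Fgf10 (4.32% and 9.92%) and Fgf1 (1.61% and 8.68%) remain apart, and those of Fgf18 change order. Thinned to 2000 UMIs (not drawn), the intervals of Fgf10 overlap.

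Few cells held UMIs of several ligands. In Null mesothelium 52 of the 135 cells with Fgf10 also had Fgf18 (38.5%), against 27.0% of the cells without Fgf10, and the cells with Fgf10 were deeper, with medians of 20029 and 17364 UMIs. In Control mesothelium the shares were 32.4% and 24.98%. Fgf10 and Fgf1, both higher in Null mesothelium, were found together in 19 cells, 14.1% of the cells with Fgf10, and Fgf1 was in 17.9% of the cells without it. Cells with Fgf8 had Fgf18 in 28.4% of cases in Control, beside 25.3% of the others. In Control mesenchyme, 19 of 153 cells with Fgf10 had Fgf18 (12.4%), against 6.58% of the others.

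Genes outside the set with the most similar levels over the 19 profiles were ranked by Pearson's r among 13897 genes, as a description over profiles that share libraries and depth. For Fgf10 they were Cpz (0.97), Cybrd1 (0.95), Gdf6 (0.95), Zfp469 (0.95) and Shisa3 (0.94). For Fgf18 they were Sulf1 (0.95), Hoxc5 (0.95), Sema3a (0.94), Flnc (0.94) and B3gnt9 (0.94). For Fgf2 they were Naalad2 (0.96), Nkain4 (0.95), Pcdh18 (0.95), Rbm46 (0.95) and Pdzrn3 (0.95), and for Fgf1, whose best likeness was lower, Timp1 (0.89), Fam114a1 (0.87), Nt5c3b (0.86), Igf2os (0.86) and Rad51c (0.86). Fgf8 and Fgf7 had under 200 UMIs in named cells and were not ranked.

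Receptor RNA was read in the epithelium and in the stroma. Fgfr2, whose b form binds Fgf10 and Fgf7, stood at 99.8 CPM in Control and 131 CPM in Null ductal cells, with a log2 ratio of 0.39 (0.35 to 0.44), and at 18.9 and 12.8 CPM in acinar cells, with -0.56 (-0.66 to -0.47). In mesenchymal cells it stood at 8.15 and 6.30 CPM. Fgfr1 was highest in mesenchymal cells, at 75.4 CPM in Control and 76.7 CPM in Null, and stood at 31.1 and 34.2 CPM in mesothelial cells. The 3' tags do not separate b and c forms. Of the 7 receptors and co-receptors, 6 were measured in mesenchymal cells and 2 were called lower, Fgfr4 at -1.73 (-3.13 to -0.56) and Kl, a co-receptor gene of endocrine FGFs, at -4.03 (-9.39 to -1.44, 29 UMIs and 1 UMI), where 5.66% of all features were called lower. In mesothelial cells 5 were measured and Fgfr4 was called lower, at -2.60 (-4.29 to -1.26), beside 4.91% of all features.

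Genes that handle heparan sulphate, which holds FGFs near their source, were read beside the ligands. In mesothelial cells all 25 were measured, 3 were called higher and 1 lower, against 5.86% and 4.91% of all features, with a median log2 ratio of 0.28. The higher ones were Sulf2, an extracellular sulphatase that trims heparan sulphate (29.0 CPM in Control and 120 CPM in Null), and the glypicans Gpc6 (28.7 and 64.1 CPM) and Gpc4 (8.04 and 16.4 CPM). The lower one was Fgfbp1, a secreted FGF carrier, with 35 Control and 2 Null UMIs. In mesenchymal cells 24 were measured and the related sulphatase gene Sulf1 alone was called, at 73.5 CPM in Control and 214 CPM in Null. That is 1 of 24 called higher, beside 4.17% of all features.

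Feedback and target genes of FGF and ERK signalling were also read. Fgf9 itself was disrupted in the Null library, and no link between these genes and the ligands of the set was tested. In mesothelial cells 13 of 15 were measured, 1 was called higher and 4 lower, against 5.86% and 4.91% of all features, with a median log2 ratio of -0.62. Lower were Il17rd at -2.12, Ccnd1 at -1.38, Etv1 at -1.34 and Spry2 at -1.01, of which Il17rd and Spry2 encode inhibitors of the pathway, Ccnd1 a cyclin and Etv1 an ETS factor. Higher was the immediate early gene Egr1 at 1.36, which was also called in mesenchymal cells at 1.32. In mesenchymal cells 14 were measured, Egr1 was the only call, beside 4.17% of all features called higher, and the median was 0.10.

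Transcription factors known from Fgf10-expressing mesenchyme of other organs differed in both directions in the mesenchyme. In mesenchymal cells 12 of 15 were measured, of which Foxf1 (0.675 CPM in Control and 4.30 CPM in Null) and Gli1 (2.48 and 5.66 CPM) were called higher. Tlx1, Nkx2-5, Nkx3-2, Barx1 and Tbx3 were called lower, with Tlx1 at 32.3 CPM in Control and 0.956 CPM in Null. Of all features there, 4.17% were called higher and 5.66% lower. In mesothelial cells, where Fgf10 was higher, 10 were measured, none was called higher, and Barx1, Sox9 and Tlx1 were called lower, where 5.86% of all features were called higher and 4.91% lower. Isl1 stood at 142 CPM in Control and 78.2 CPM in Null mesothelium, with a log2 ratio of -0.86, and at 46.3 and 80.7 CPM in mesenchyme, with 0.80.

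Free RNA, read from 13 acinar enzyme genes, was estimated at 25.7% of the UMIs of Control and 6.38% of Null mesenchymal cells, and at 23.2% and 6.04% of mesothelial cells. It would have given 4.68 of the 127 Fgf10 UMIs in Control and 0.930 of the 219 in Null mesothelium. Subtracting it left Fgf10 there at 8.86 CPM in Control and 22.4 CPM in Null. The profile of free RNA was taken from all deposited barcodes of a library, cells included, so these values are rough. In Control endocrine cells the estimate was 18.5 Fgf10 UMIs where 2 were read. In ductal cells it was 17.9 where 12 were read in Control and 6.22 where 8 were read in Null.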

How the data were processed

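Droplet RNA libraries of dissociated embryonic pancreas (TrypLE, then a sort of DAPI-negative cells behind a size gate, sequenced on a NovaSeq, per the labels' protocols) were analysed. The authors deposited raw UMI counts, whole numbers for each gene in each barcode. The mm10 build, Cell Ranger 6.1.1, Seurat 3.2.3 and bcl2fastq are named, per the submitters' processing notes, with no role given. The Control library held 30209 barcodes with 339959625 UMIs, and the Null library 16708 with 271129120.

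Barcodes with at least 1000 UMIs, 300 genes and under 15% mitochondrial UMIs were kept. Scrublet in scanpy 1.11.5 marked 5.53% of Null barcodes; in Control its automatic threshold marked 0%, so a score of 0.25 was used and marked 0.809%, and doublets may remain there. Repeated above 5000 UMIs alone, the call marked 9.09% and 3.81%. Both libraries were clustered together (2000 variable genes without FGF ligands, 30 components, 15 neighbours, Leiden resolution 1), and stromal and epithelial cells again. The naming rule needed at least 3 markers of the class in at least 10% of a cluster's cells. A cluster with at least 2 foreign markers among its 10 leading genes was left unnamed (epithelial markers in a non-epithelial cluster, or the reverse). So was a shallow cluster with no marker of its class among those genes. The rule was set after the data were seen. It left 10486 Control and 304 Null cells unnamed, most of low UMI counts, beside 1805 and 640 unnamed stromal cells. Classes are marker-based ("mesenchymal-like") and shortened after first use.

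CPM is UMIs scaled to a class total of 1000000 without haemoglobin and mitochondrial genes. Ratios carry exact conditional Poisson intervals and shares Clopper-Pearson intervals at 95%; a count of 0 was set to 3 counts for ratios. The code was tested on simulated counts. The members and lists were chosen with earlier results of these data known. All 6 ligands are named whatever their values, and list genes may be named. Of the feature identifiers, 99.6% matched GENCODE vM21. Promoter sequences are from RefSeq. Alternatives concerned depth, cell weighting, doublets, free RNA, class definition and the CPM total.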

Additional observations from a re-analysis of the deposited data

Results flagged for a closer look

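Among the ligands measured in both stromal classes, Fgf18 was the one whose Null over Control ratios had opposite signs with both counting intervals excluding 0. Fgf1 (-0.30 and 1.75) and Fgf2 (-0.15 and 0.90) also had opposite signs, with a mesenchymal interval that held 0. The Fgf18 log2 ratio was 0.44 (0.12 to 0.76) in mesenchymal-like cells and -0.49 (-0.71 to -0.26) in mesothelial-like cells. The difference between the classes was not tested, since each group was 1 pooled library. Without cells of 3 or more Fgf18 UMIs the mesenchymal ratio was 0.21 (-0.14 to 0.55). The mesothelial ratio moved to -0.18 over clusters 2 and 5 and to 0.02 with classes set per cell from markers.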

How the results depend on the processing

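The 9 log2 ratios of ligands measured in the stromal classes were recomputed under 10 alternatives, of which 4 were chosen after seeing the data (a second doublet call, the first clustering, clusters that both libraries filled, and no cells with 3 or more UMIs of the ligand). Of the 90 values, 80 stayed within the counting interval of the reported ratio, 10 moved outside it, and 0 of the called ratios changed sign. With classes set per cell from markers, mesothelial Fgf10 was 1.69, Fgf8 -1.74 and Fgf18 0.020, and mesenchymal Fgf1 was 0.69. Over clusters that both libraries filled, mesothelial Fgf10 was 1.70, Fgf1 1.32 and Fgf18 -0.18, and mesenchymal Fgf10 was 0.53 and Fgf1 0.27. Without cells of 3 or more UMIs, mesothelial Fgf10 was 0.83. That setting left out 14 Null and 0 Control cells, so it could only lower the ratio. The cause of the other moves was not tested. Mesothelial Fgf1 ranged from 1.32 to 2.10, Fgf8 from -2.86 to -1.74 and Fgf2 from 0.80 to 1.32. All 34 CPM values recomputed stayed within their intervals. No paired analysis was possible because each group is 1 library. Depth limits Fgf7, which had under 20 UMIs in each stromal class, and Fgf8 in Null mesothelium rests on 15 UMIs.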

Other observations

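Smaller stromal and neural classes also held ligand UMIs. In 107 Control and 46 Null mural or smooth muscle-like cells, Fgf18 stood at 6.78 CPM (9 UMIs) and 19.6 CPM (18 UMIs), and 1 Null cell held 6 of the 18. Fgf2 in 154 Control and 147 Null neural or glial-like cells had 2 and 8 UMIs. The unnamed stromal cells, at median depths of 2089 and 1474.5 UMIs, held Fgf18 at 8.995 CPM in Control and 12.5 CPM in Null, Fgf10 at 5.37 and 3.91 CPM, and Fgf8 at 1.74 and 1.56 CPM from 12 and 2 UMIs.

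Of the 16 other FGF ligands, 6 were measured in mesothelial cells, of which 3 were called lower in Null and none higher, against 4.91% and 5.86% of all features. Beside Fgf9 these were Fgf16, of the same subfamily, with 42 Control and 6 Null UMIs, and Fgf13, an intracellular FGF, at 29.0 and 14.2 CPM. Fgf5 stood at 11.1 and 9.67 CPM there, with a log2 ratio of -0.20 (-0.59 to 0.17).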
